A study of Mus musculus with 4 samples.

Results

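Chemokines and their receptors were taken as every gene whose symbol starts with Ccl, Cxcl, Ccr, Cxcr, Ackr, Xcl or Xcr and a digit, or with Cx3c. Among the 32285 genes counted, 67 entries (61 symbols) carried such a name, and 51 of them reached 20 unique molecular identifiers (UMIs, 1 per captured RNA molecule) over the 4 libraries. These 51 members were 29 ligands, 18 signalling receptors and 4 atypical receptors. The 16 entries left out included Ccr1l1 (3 UMIs), Cxcl1 (3 UMIs), Ccl7 (6 UMIs) and Cxcl15 (7 UMIs), and 12 entries had none. The members closest to the limit were Cxcl14 (23 UMIs), Cx3cl1 (31 UMIs) and Ccl21a (34 UMIs), whereas Ccl5, with 532258 UMIs, was counted most.

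The libraries came from whole spleens of 4 female C57BL/6J mice, 1 library per mouse. WT mice carried unmodified cyclin D3. D3TA mice were heterozygous for a knock-in made with CRISPR/Cas9 in which threonine 283 of cyclin D3, encoded by Ccnd3, is replaced by alanine. The change is global and constitutive, so no cell type of these mice lacks it. Each group held 2 mice, the D3TA mice being 12 and 16 months old and the WT mice matched for age and sex, and the labels do not say which library came from which age. At these ages the model has a severe myeloproliferative neoplasm, a disease in which myeloid cells are overproduced, and no mouse is described as treated. After mechanical dissociation and lysis of red cells, cells were captured in droplets, and no sort or gate is described.

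Each library held 9888 to 25829 barcodes and 81416981 to 143811696 UMIs, of which 7675 to 22290 cells were kept. Cells were assigned to classes by 10 marker genes per class, none of them a chemokine or receptor, and 82.4% to 95.8% of the kept cells of a library received a class. In 15 of the 17 classes of at least 20 cells, the 10 leading genes held more of the class's own markers than of other classes'. The exceptions were plasma cell-like and cDC2-like cells, whose leading genes held no marker of any class. WT replicate 1 was the shallowest library, with a median of 1393 UMIs per cell against 7561 to 7912 in the others, and any pair of libraries shared at most 0.755% of the barcodes of the smaller one. The neutrophil lineage made up 0.956% and 1.81% of kept cells in WT replicates 1 and 2 and 37.0% and 22.4% in D3TA replicates 1 and 2. D3TA replicate 1 stood apart: summed over all its cells, 13 of the 51 members reached at least 2-fold the level of every other library, and 10 at least 5-fold. The same count was 2 members in D3TA replicate 2, 2 in WT replicate 1 and 0 in WT replicate 2. Results that rest on D3TA replicate 1 are therefore given with and without it.

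Chemokines are small secreted proteins that set the direction in which leukocytes move, by binding receptors with a membrane-spanning structure that signal through Gi proteins. Atypical receptors bind the same ligands without that signal and take them up or hold them. In the spleen, Cxcl13 draws Cxcr5-bearing B cells into follicles, Ccl19 and Ccl21a draw Ccr7-bearing T cells and dendritic cells into the T-cell zone, and Cxcl12 holds Cxcr4-bearing myeloid cells in place, while Cxcr2 ligands draw neutrophils out into the blood.

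Some members lie near each other in the genome, and the sequence before the start of 7 of them is shown because the results below turn on these genes. Ccl8 and Ccl12 are separated by 11784 bases, and Ccl6 and Ccl9 by 9245 bases. Cxcl2 and Cxcl3, both ligands of Cxcr2, are 114270 bases apart, with Cxcl1 and Cxcl15 between them. Each run is the 100 bases upstream of the RefSeq start, on the gene's strand, GRCm38.p6. Capitals mark a form of the NF-kB motif (GGG, any 2 bases, then TTTCC), the TATA box (TATAAA) or the AP-1 motif (TGANTCA), searched on both strands, and TTTATAAA is a TATA box read from both strands at overlapping positions.
Cxcl2, chr5:90903799-90903898, plus strand: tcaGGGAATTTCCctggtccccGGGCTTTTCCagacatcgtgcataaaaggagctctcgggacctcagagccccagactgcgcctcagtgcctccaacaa
Cxcl3, chr5:90786001-90786100, plus strand: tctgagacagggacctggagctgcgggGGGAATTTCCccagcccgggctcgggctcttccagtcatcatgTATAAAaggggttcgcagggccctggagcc
Ccl8, chr11:82115085-82115184, plus strand: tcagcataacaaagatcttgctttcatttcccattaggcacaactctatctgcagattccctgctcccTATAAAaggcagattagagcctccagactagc
Ccl12, chr11:82101745-82101844, plus strand: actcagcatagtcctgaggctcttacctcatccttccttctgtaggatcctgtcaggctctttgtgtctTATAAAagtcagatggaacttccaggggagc
Ccl9, chr11:83578637-83578736, minus strand: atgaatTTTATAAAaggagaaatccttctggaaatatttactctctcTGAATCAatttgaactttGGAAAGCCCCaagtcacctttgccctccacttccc
Ccl6, chr11:83593088-83593187, minus strand: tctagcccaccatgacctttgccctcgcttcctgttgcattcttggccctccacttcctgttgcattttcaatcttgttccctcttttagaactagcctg
Cxcr4, chr1:128592300-128592399, minus strand: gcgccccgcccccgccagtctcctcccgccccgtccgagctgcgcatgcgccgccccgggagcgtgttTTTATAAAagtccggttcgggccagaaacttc
RefSeq promoter windows of 250 bases before to 50 after the start were at hand for 40 of the 51 members. The NF-kB letters occurred in 4 of these 40 members and in 1.63% of all 32851 windows, the TATA letters in 12 and in 13.6%, and the AP-1 letters in 7 and in 7.81%. A member was counted if any of its windows held the letters, and Ccl27a, Ccl25 and Ccr6 have several windows, so the members and the windows are unlike units. These are matches of letters and were not tested as binding sites.

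The sources of chemokines were divided among the innate classes and the natural killer (NK) cells. Levels are given as CPM, a gene's UMIs per 1000000 UMIs of the class in a library, only where that library held at least 20 cells of the class. They are not divided by transcript length, so levels are compared across classes for 1 gene, not between genes. The class with the highest mean CPM was taken as the source of a ligand or the receiver bearing a receptor. A mean of at least 50 CPM in the highest class was reached by 26 members, 12 ligands and 14 receptors, and in 16 of the 26 every library of the highest class lay above every library of the next. The map of these members across classes shows ligands concentrated in lymphoid killer cells, dendritic cells and granulocytes.

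**Figure D1:**
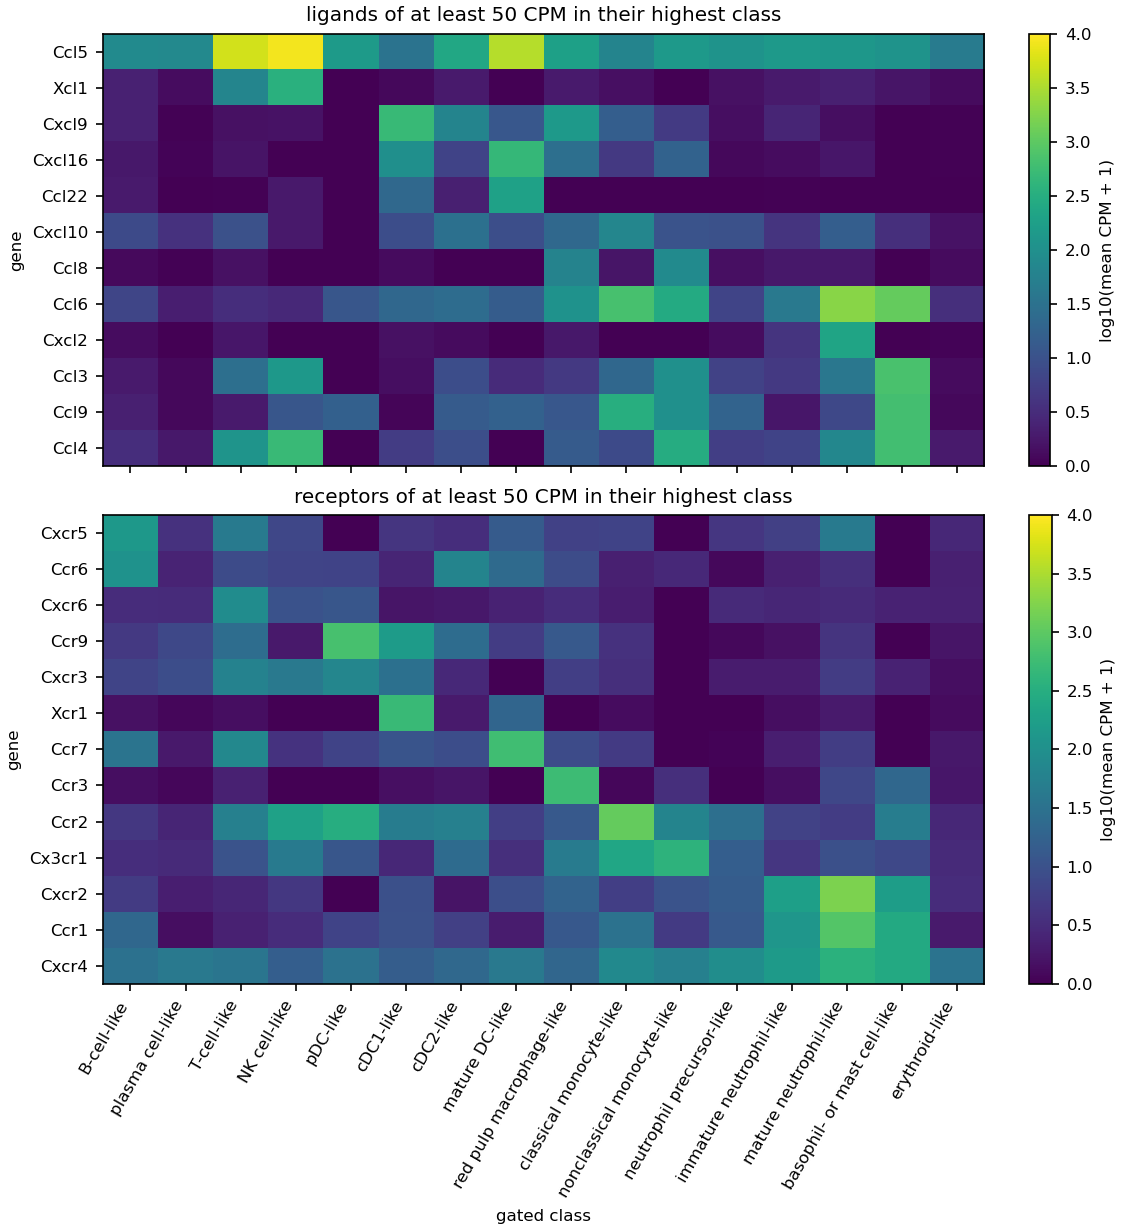
Mean CPM of the 12 ligands (top) and 13 of the 14 receptors (bottom) of at least 50 CPM in 16 gated classes, as log10(mean CPM + 1), averaged over the libraries with at least 20 cells of the class. Each row is brightest at its source or receiver, such as Cxcr2 in mature neutrophil-like cells (mean 1617 CPM) and Xcr1 in cDC1-like cells (mean 514 CPM), and the Ccl5 row is above 0 in every class.

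NK cell-like cells held the highest levels of Ccl5 and Xcl1. Ccl5, a ligand of Ccr1 and Ccr3, reached 9102 and 8849 CPM in the NK cell-like cells of WT replicates 1 and 2 and 7156 CPM in those of D3TA replicate 2; D3TA replicate 1 held 3 such cells. T-cell-like cells followed with 973, 1720, 16700 and 1643 CPM in WT replicates 1 and 2 and D3TA replicates 1 and 2, so that the 2 classes overlapped through D3TA replicate 1 alone. Mature DC-like cells came next by mean, with 4394, 2942 and 3450 CPM in WT replicates 1 and 2 and D3TA replicate 2. In each of these libraries they lay above T-cell-like cells. The higher mean of T-cell-like cells rests on D3TA replicate 1, which held 6 mature DC-like cells and was not read for that class. Xcl1, the ligand of Xcr1, stood at 345, 588 and 119 CPM in NK cell-like cells and at 30.2 to 111 CPM in T-cell-like cells of the 4 libraries, with no overlap between the 2 classes. In D3TA replicate 2 the Xcl1 level of NK cell-like cells was the lowest of the 3 libraries.

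Basophil- or mast cell-like cells had the highest level of 3 inflammatory CC chemokines, read only in the D3TA libraries, since WT replicates 1 and 2 held 16 and 1 such cells. Ccl3, a ligand of Ccr1, reached 583 and 855 CPM there in D3TA replicates 1 and 2, against 66.4, 108 and 223 CPM in NK cell-like cells. Ccl4, a close relative of Ccl3, reached 607 and 616 CPM, within the 317 to 716 CPM of NK cell-like cells. Ccl9, a ligand of Ccr1, reached 503 and 786 CPM, above the 223 to 399 CPM of classical monocyte-like cells. Of these 3 genes only Ccl4 therefore overlapped the next class. As a share of all UMIs, T-cell-like cells held 64.1% of the Ccl3 and 77.2% of the Ccl4 of D3TA replicate 1 and 7.28% and 31.2% of those of D3TA replicate 2, and monocytes and macrophages held 43.0% and 40.0% of the Ccl9. Ccl6, the neighbour of Ccl9 and another Ccr1 ligand, was also abundant in basophil- or mast cell-like cells (1123 and 1172 CPM), but its highest class was mature neutrophil-like cells, with 2009 and 2130 CPM in WT and 1983 and 1713 CPM in D3TA replicates 1 and 2.

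The Cxcr2 ligand Cxcl2, whose promoter holds 2 of the NF-kB runs shown above, was likewise highest at the mature neutrophil stage. Its level there was 265 and 287 CPM in WT and 63.7 and 239 CPM in D3TA, against 3.22 and 2.78 CPM in the next class, the immature neutrophil-like cells of D3TA. Few cells carried it. With every cell thinned to 1000 UMIs, 3.97%, 2.70%, 4.10% and 10.6% of mature neutrophil-like cells had a Cxcl2 UMI, against 0.144% or less of B-cell-like cells. Without thinning the shares were 5.35%, 9.24%, 9.56% and 15.7%, and in both WT libraries 1 cell held most of the Cxcl2 UMIs (51.3% and 70.3% of the library's). Cxcl3, the other Cxcr2 ligand shown above, was near absent, at a mean of 1.36 CPM in the same class.

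Dendritic and monocytic cells supplied ligands for lymphocytes. Cxcl9, an interferon-induced ligand of Cxcr3, reached 634 and 239 CPM in the cDC1-like cells of WT replicates 1 and 2 and 840 and 235 CPM in those of D3TA replicates 1 and 2, with red pulp macrophage-like cells next (9.41, 134, 164 and 278 CPM). In WT replicate 1, 191 of the 295 Cxcl9 UMIs of cDC1-like cells came from 1 cell, and the range of this class overlapped that of macrophage-like cells. Cxcl16, the ligand of Cxcr6, stood at 482, 449 and 442 CPM in mature DC-like cells and at 76.3 to 128 CPM in cDC1-like cells, with no overlap. Ccl22, a ligand of Ccr4, was read at 103, 71.2 and 409 CPM in mature DC-like cells, the highest value being that of D3TA replicate 2. Cxcl10, another Cxcr3 ligand, was highest on average in classical monocyte-like cells, where it ranged from 6.60 CPM in D3TA replicate 2 to 169 CPM in WT replicate 2. Ccl8 was read in nonclassical monocyte-like cells at 0 CPM in WT replicate 2 and 162 CPM in D3TA replicate 1, in which 41 of its 42 UMIs came from 1 cell.

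Several receptors were carried mainly by 1 class. Cxcr2 marked mature neutrophil-like cells with 1640 and 1497 CPM in WT and 1536 and 1795 CPM in D3TA, and Ccr1 the same class with 801 and 701 CPM in WT and 869 and 1060 CPM in D3TA. Ccr2, which brings monocytes out of the marrow, stood at 1058 and 1151 CPM in WT and 1151 and 1110 CPM in D3TA classical monocyte-like cells. Every library of these 3 genes lay above every library of the next class, which for Ccr1 was basophil- or mast cell-like cells (259 and 269 CPM). Ccr3, known best as an eosinophil receptor, was carried by red pulp macrophage-like cells at 657, 496, 455 and 583 CPM, and basophil- or mast cell-like cells came next at 21.3 and 19.5 CPM. Xcr1, the receptor of Xcl1, was highest in cDC1-like cells at 383, 485, 621 and 568 CPM, ranked 1 of all genes by fold in that class, and had a mean of 19.0 CPM in the next class, mature DC-like cells. Cx3cr1, the fractalkine receptor, reached 545 CPM (WT replicate 2) and 212 CPM (D3TA replicate 1) in nonclassical monocyte-like cells and overlapped classical ones (340, 315, 75.9 and 198 CPM). Cxcr4 was highest in mature neutrophil-like cells (371, 414, 262 and 398 CPM) and overlapped basophil- or mast cell-like cells (179 and 362 CPM).

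Other receptors were carried by lymphoid and dendritic cells. Cxcr5, the follicle-homing receptor, stood at 145, 121, 120 and 144 CPM in B-cell-like cells and at 24.9 to 64.4 CPM in T-cell-like cells. Ccr7 was highest in mature DC-like cells (460, 536 and 756 CPM) and next in T-cell-like cells, and neither class overlapped the other. Ccr9, the receptor of Ccl25, reached 691 CPM in the pDC-like cells of WT replicate 1, the only library with enough of them, and 83.3 to 213 CPM in cDC1-like cells. Cxcr6 was read at 50.1, 62.7, 150 and 87.6 CPM in T-cell-like cells. Cxcr3 was spread over pDC-like cells (68.6 CPM in WT replicate 1) and T-cell-like cells (45.0, 63.3, 79.5 and 45.5 CPM). Among T-cell-like cells, those with a Foxp3 UMI, regulatory T cells by that marker, held the most Ccr4 (22.1, 30.8, 18.1 and 30.9 CPM) and Ccr8 (10.4, 8.33, 26.2 and 28.0 CPM).

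Of 28 textbook ligand and receptor pairs, 7 had ligand and receptor highest in the same class: Cxcl2 and Cxcl3 with Cxcr2 and Ccl6 with Ccr1 in mature neutrophil-like cells, Ccl19 with Ccr7 in mature DC-like cells, Ccl2 with Ccr2 in classical monocyte-like cells, Ccl24 with Ccr3 in red pulp macrophage-like cells, and Ccl1 with Ccr8 in T-cell-like cells. The place of Cxcl3 was a tie, with means of 1.36 CPM in mature neutrophil-like and 1.35 CPM in T-cell-like cells that overlapped. In 10 pairs both members reached 50 CPM, among them Xcl1 of NK cell-like cells (mean 351 CPM) with Xcr1 of cDC1-like cells (mean 514 CPM), and Cxcl16 of mature DC-like cells (mean 458 CPM) with Cxcr6 of T-cell-like cells (mean 87.6 CPM). For Cxcl12, Ccl21a and Cx3cl1 the receptor was abundant and the ligand barely counted. Cxcl12 had a mean of at most 1.66 CPM in any class although its receptor Cxcr4 had 361 CPM in mature neutrophil-like cells. These ligands are known to come from stromal and endothelial cells, and the gate found 2 stromal-like cells among all kept cells. The part of this in the low counts of the 3 ligands was not tested.

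The remaining 25 members stayed under 50 CPM in every class, 17 ligands, 4 receptors and 4 atypical receptors. Ccl25 was widely spread, with 58.3, 58.0, 23.9 and 30.5 CPM in red pulp macrophage-like cells, between 17.6 and 29.6 CPM in B-cell-like cells and between 5.05 and 9.39 CPM in plasma cell-like cells. Ackr1, the erythroid chemokine-binding receptor, was highest in erythroid-like cells with 22.8, 26.8, 23.2 and 13.4 CPM. Ackr2 and Ackr3, which remove inflammatory CC chemokines and Cxcl12, were highest in B-cell-like cells, each with its maximum in D3TA replicate 1 (25.1 CPM for Ackr2 and 22.6 CPM for Ackr3, against 4.17 to 7.36 CPM in the other libraries). Ccr10 was highest in plasma cell-like cells (4.96 to 14.6 CPM) and Cxcr1 in mature neutrophil-like cells (20.5 and 28.7 CPM in WT, 8.69 and 9.61 CPM in D3TA). The other members of low level were Cxcl13, Ccl24, Ccl12, Ccl19, Ccl2, Cxcl14, Ccl27a, Ccl17, Cx3cl1, Cxcl17, Ccl1, Cxcl12, Cxcl3, Ccl28, Cxcl5, Ccl21a, Ccr4, Ccr8 and Ackr4, with mean levels in their highest class from 0.219 CPM (Ccl21a) to 49.9 CPM (Cxcl13).

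Along neutrophil maturation the receptors followed a fixed order in both D3TA libraries, where all 3 gated stages could be read. In D3TA replicates 1 and 2, Cxcr2 went from 12.5 and 14.7 CPM in precursor-like cells through 184 and 179 CPM in immature cells to 1536 and 1795 CPM in mature cells. Ccr1 went from 12.2 and 11.8 CPM through 122 and 134 CPM to 869 and 1060 CPM, and Ccl6 from 8.47 and 2.72 CPM through 55.1 and 26.3 CPM to 1983 and 1713 CPM. Cxcr4 was already present in precursor-like cells at 65.0 and 113 CPM and stood at 127 and 169 CPM in immature and 262 and 398 CPM in mature cells. The 2 libraries of a stage did not overlap those of the next stage for any of these 4 genes. CPM is a share of a class's UMIs, and cells of later stages held fewer UMIs. In D3TA replicates 1 and 2 the median per cell was 29380 and 32750 in precursor-like, 9032 and 8897 in immature and 3844 and 3212 in mature cells. A higher CPM at a later stage is therefore not shown to be more UMIs per cell. WT libraries held 2 to 18 precursor-like or immature cells and were read at the mature stage alone.

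**Figure D2:**
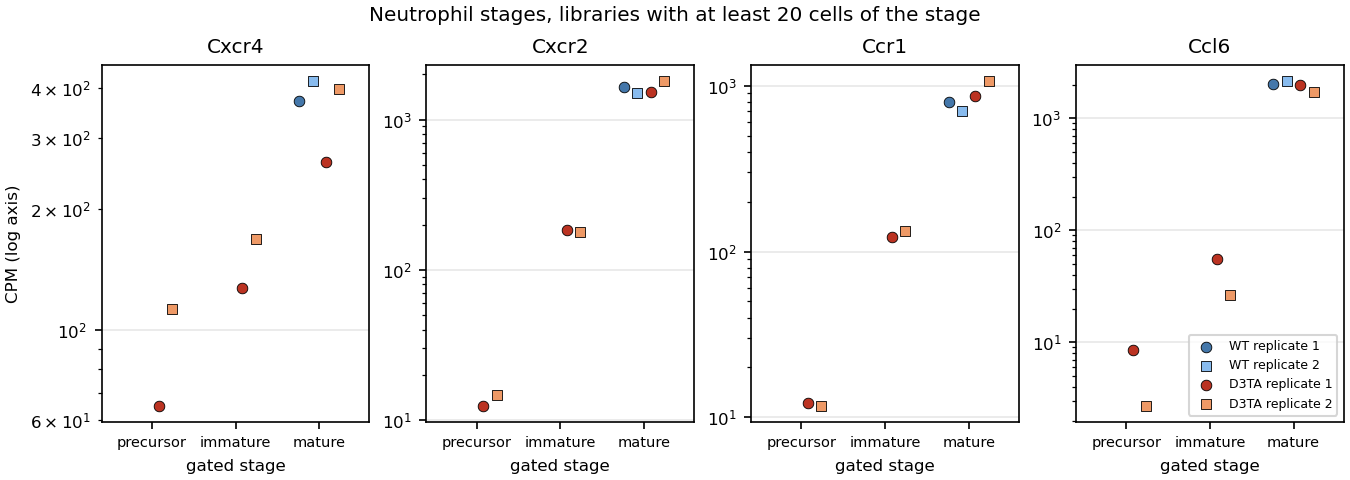
CPM (log axis) of Cxcr4, Cxcr2, Ccr1 and Ccl6 at 3 gated stages of the neutrophil lineage (precursor, immature, mature), 1 point per library that held at least 20 cells. All 4 genes have a higher CPM, as a share of a stage's UMIs, at each later stage in both D3TA libraries. The WT points at the mature stage lie beside the D3TA ones.

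The genotypes were compared in sums of UMIs per library, with edgeR's quasi-likelihood test and Benjamini-Hochberg adjustment over all genes tested, and a gene was called at an adjusted p under 0.05. The values of the tests are CPM scaled by TMM, a correction for composition. With 2 mice a group, p-values measure the spread between single mice. In whole spleen, 45 of the 51 members were tested and 3 were called, all higher in D3TA: Cxcr4, Cxcl13 and Ccr1. Over all 18345 genes tested 6.03% were called, and 5.66% were called higher. At an unadjusted p under 0.05, 14 members passed (22.2% of all genes), and DESeq2 called 10 (13.3%). Without WT replicate 2 edgeR called 0 members and 1.12% of all genes, and without D3TA replicate 2 it called 25 members and 29.9% of all genes.

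Cxcr4 (ENSMUSG00000045382, GRCm38 chr1:128588199-128592293) stood at 29.2 and 34.7 CPM in WT and 71.6 and 74.2 CPM in D3TA whole spleen. It rose by a log2 fold change of 1.19 ± 0.16 (SE, n = 2 and 2, edgeR adjusted p = 0.0214). Ccr1 (ENSMUSG00000025804, chr9:123962124-123968692) stood at 15.1 and 9.23 CPM in WT and 82.9 and 44.9 CPM in D3TA, and rose by 2.39 ± 0.40 on the log2 scale (edgeR adjusted p = 0.0359). The groups of both genes did not overlap. In a sum over all cells, more cells that carry a receptor and more receptor RNA per cell cannot be told apart. The neutrophil lineage held 10.3% and 8.66% of the Cxcr4 UMIs of WT replicates 1 and 2 and 67.0% and 52.3% of those of D3TA replicates 1 and 2, while B-cell-like cells held 58.5% and 59.8% in WT and 8.42% and 20.6% in D3TA. For Ccr1 the neutrophil share was 39.5% and 49.5% in WT and 73.8% and 80.9% in D3TA. With the neutrophil lineage left out of the sum, Cxcr4 stood at 27.4 and 32.8 CPM in WT and 34.2 and 46.9 CPM in D3TA, and Ccr1 at 9.59 and 4.83 CPM against 31.4 and 11.4 CPM. Without WT replicate 1 or 2, the edgeR adjusted p of Cxcr4 was 0.315 or 0.195, and that of Ccr1 was 0.126 without WT replicate 2 and 0.0501 without D3TA replicate 1.

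Cxcl13 (ENSMUSG00000023078, chr5:95956951-95961068), the follicle chemokine, was read at 0.535 and 0.452 CPM in WT and 2.43 and 3.75 CPM in D3TA whole spleen and rose by 2.64 ± 0.39 on the log2 scale (edgeR adjusted p = 0.0256). The D3TA sums rested on few cells. In D3TA replicate 2, 372 of 396 UMIs came from 1 stromal-like cell, and in D3TA replicate 1, 116 of 282 UMIs came from 1 macrophage-like cell and 125 from 24 T-cell-like cells. With the most loaded cell of each library removed, an alternative chosen after seeing the data, the log2 fold change was 0.85 (edgeR adjusted p = 0.597), and the call was also lost without WT replicate 1 (0.0961) or 2 (0.157) and under the stricter cell filter (0.0579).

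Among the members not called, 15 more were higher in both D3TA libraries than in both WT libraries and 5 were lower. Counting the called ones, 18 members were higher without overlap, against 29.0% of all genes tested, and 5 were lower, against 28.6%. The log2 fold change was positive for 33 of 45 members, with a median of 0.57, beside 49.7% of all genes and a median of -0.00. Cxcr2 stood at 23.4 and 11.7 CPM in WT and 106 and 57.4 CPM in D3TA (edgeR adjusted p = 0.0586), with 51.9% and 83.5% of its WT UMIs and 94.8% and 92.8% of its D3TA UMIs in the neutrophil lineage. Ccr2 stood at 14.3 and 17.9 CPM in WT and 66.5 and 32.8 CPM in D3TA (0.0763), and the neutrophil lineage held at most 6.82% of its UMIs in any library. Cxcr5 was the member of smallest p on the lower side, at 108 and 87.0 CPM in WT and 51.0 and 59.7 CPM in D3TA (0.0800), with B-cell-like cells making up 72.1% and 70.1% of kept cells in WT and 19.5% and 41.3% in D3TA. The plot of whole-spleen values shows that the libraries of Ccr7 and Ccr6 split differently: D3TA replicate 1 was far below the other 3.

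**Figure D3:**
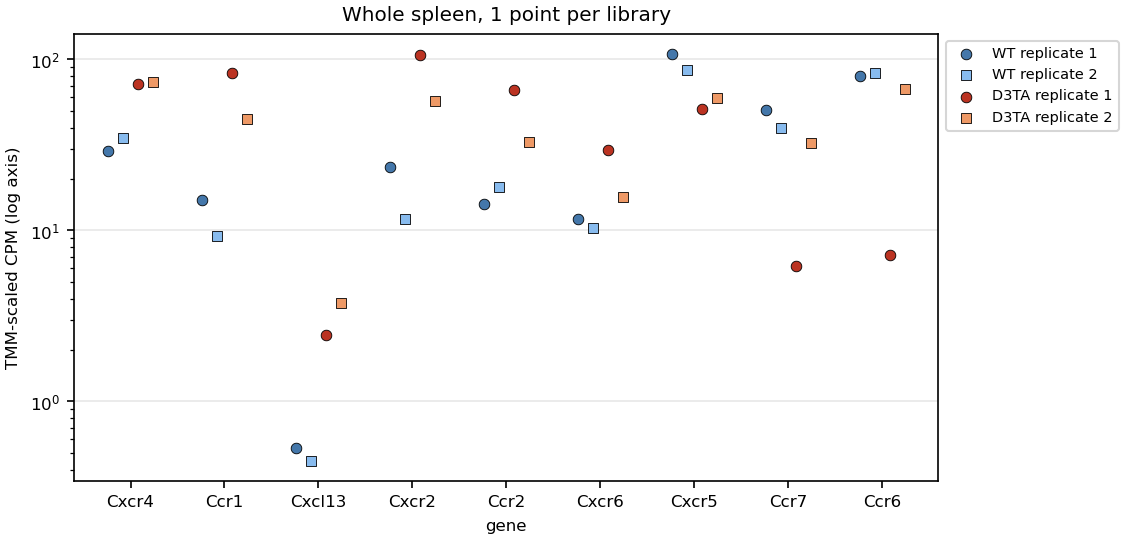
TMM-scaled CPM (log axis) of 9 members in whole spleen, 1 point per library, WT in blue and D3TA in red. Cxcr4, Ccr1 and Cxcl13, the 3 called members, have both D3TA libraries above both WT libraries, and for Ccr7 (6.19 CPM) and Ccr6 (7.19 CPM) D3TA replicate 1 lies apart.

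In classical monocyte-like cells 12 members were tested and 4 were called, 1 higher and 3 lower in D3TA. Over the 7875 genes tested there, 10.5% were called, 7.12% higher and 3.40% lower. At an unadjusted p under 0.05, 7 members passed (21.7% of all genes), and DESeq2 called 3 (4.98%), namely Ccl6, Cxcr4 and Cx3cr1. Leaving out each library in turn left between 2 members called (without WT replicate 1, with 6.18% of all genes) and 9 (without D3TA replicate 2, with 21.3%). The median log2 fold change of the 12 members was 0.04 beside 0.02 over all genes tested. The sums rested on 51 and 25 cells in WT and 178 and 91 cells in D3TA.

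Ccl6 (ENSMUSG00000018927, chr11:83587882-83593087) stood at 1254 and 882 CPM in WT and 340 and 380 CPM in D3TA monocytes, and fell by 1.57 ± 0.30 on the log2 scale (edgeR adjusted p = 0.000165). Cxcr4 went the other way, from 31.2 and 38.8 CPM to 98.6 and 143 CPM, and rose by 1.77 ± 0.40 (edgeR adjusted p = 0.00139). Cx3cr1 (ENSMUSG00000052336, chr9:119901616-120069879) stood at 357 and 321 CPM in WT and 80.3 and 191 CPM in D3TA, and fell by 1.34 ± 0.33 (edgeR adjusted p = 0.0042). The groups did not overlap for any of these 3 genes, and all 3 were also called without D3TA replicate 1. Without WT replicate 1 the edgeR adjusted p was 0.077 for Ccl6, 0.056 for Cxcr4 and 0.0668 for Cx3cr1. Cxcl10 (ENSMUSG00000034855, chr5:92346638-92348889) also passed, log2 fold change -1.84 ± 0.49 (edgeR adjusted p = 0.00938), but its groups overlapped, at 45.0 and 173 CPM in WT and 49.7 and 6.38 CPM in D3TA, and 28 of the 49 UMIs of WT replicate 2 came from 1 cell. Without WT replicate 2 its log2 fold change was -0.58 (edgeR adjusted p = 0.702), and DESeq2 gave an adjusted p of 0.685.

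Ccr2, the receptor most abundant in this class, did not pass, with 1112 and 1175 CPM in WT and 1218 and 1072 CPM in D3TA (log2 fold change 0.00 ± 0.29, edgeR adjusted p = 0.996). Ccl9, next to Ccl6 in the genome, stood at 419 and 349 CPM in WT and 236 and 292 CPM in D3TA (edgeR adjusted p = 0.289), so that its groups did not overlap either. Markers of other cells moved with these results. The summed level of the 10 immature neutrophil markers was 185 and 200 CPM in the WT and 593 and 576 CPM in the D3TA monocyte sums, with 3 and 7 of 10 markers detected in WT and all 10 in both D3TA libraries. The 10 nonclassical monocyte markers summed to 1879 and 1545 CPM in WT and 850 and 898 CPM in D3TA, and 8 to 10 of them were detected in each library. Csf1r and Clec4a3 stand both on this list and on that of the classical class, so this sum is not one of other cells alone. The part of these markers in the Ccl6, Cxcr4 and Cx3cr1 results was not tested.

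**Figure D4:**
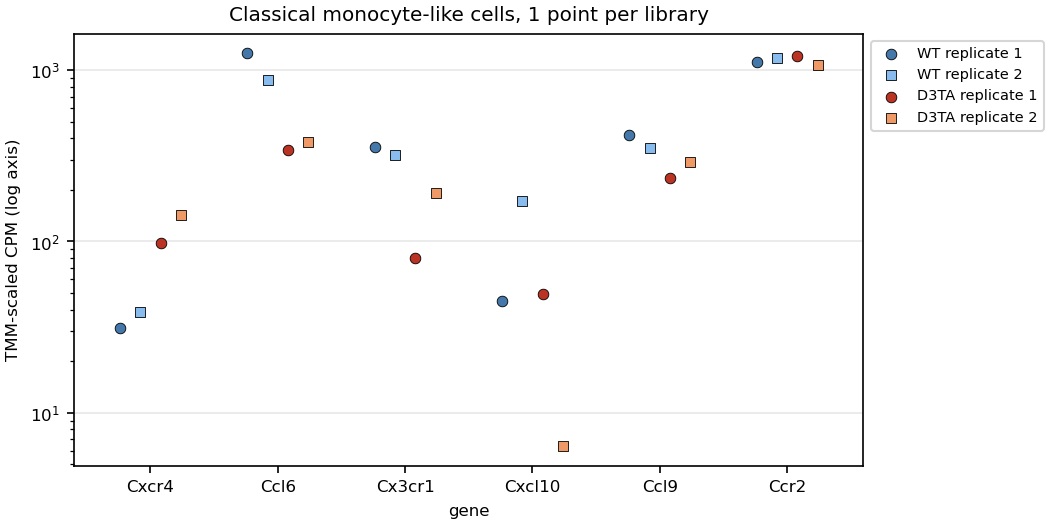
TMM-scaled CPM (log axis) of 6 members in classical monocyte-like cells, 1 point per library. Cxcr4 is higher and Ccl6 and Cx3cr1 lower in both D3TA libraries than in both WT libraries, Cxcl10 spans 6.38 to 173 CPM, and Ccr2 lies between 1072 and 1218 CPM in all 4.

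In red pulp macrophage-like cells, which clear old red cells, 1 of 11 tested members, Ccl8, was called, against 0.385% of all genes. Unadjusted, 7 passed (4.36% of all genes), and DESeq2 called 1 (0.289%). Ccl8 had no UMI in WT and entered the test through the D3TA libraries alone. With the most loaded cell of each library removed, 5 members instead of 11 had enough UMIs to be tested. The p of Ccl8 and the counts of members passing are therefore given as a description. Ccl8 (ENSMUSG00000009185, chr11:82115185-82116799), a ligand of Ccr8, had 0 UMIs in both WT libraries and 187 and 74.7 CPM in D3TA replicates 1 and 2 (edgeR adjusted p = 0.00495). Taking a floor of 3 UMIs over the WT group, it was at least 34.8-fold higher in D3TA. The D3TA replicate 2 value was 19 UMIs of 1 cell and the D3TA replicate 1 value 104 UMIs of 11 cells, and without D3TA replicate 1 the edgeR adjusted p was 0.313. Under the stricter cell filter, under the stricter gate and with the most loaded cell of each library removed, Ccl8 no longer had enough UMIs to be tested. Ccl12, its neighbour, was read in D3TA replicate 1 only (93.8 CPM, 59 UMIs in 6 cells).

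The other 10 macrophage members were not called. Cxcl9 stood at 9.69 and 142 CPM in WT and 185 and 287 CPM in D3TA, and Ccl6 at 44.6 and 61.7 CPM in WT and 284 and 78.6 CPM in D3TA, the latter at an edgeR adjusted p of 0.559. Ccl24 and Ccl25 were lower in both D3TA libraries, at 44.6 and 52.2 against 23.4 and 11.8 CPM for Ccl24 and 60.1 and 61.7 against 27.0 and 31.5 CPM for Ccl25. Markers of other cells moved with these values. The 10 immature neutrophil markers summed to 15.1 and 40.2 CPM in WT and 1360 and 1586 CPM in D3TA macrophage sums, the 10 mature neutrophil markers to 104 and 80.4 CPM in WT and 506 and 404 CPM in D3TA, and the 10 basophil markers to 1.88 and 0 CPM in WT and 110 and 168 CPM in D3TA, with Cpa3, Ms4a2 and Cd200r3 at 0 in all 4. Their part in the result was not tested.

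No member was called in the other 4 classes compared. In mature neutrophil-like cells edgeR called 0 of 12 members (0.277% of all genes), 3 passed unadjusted (10.2%), and DESeq2 called 0 (0.555%). Ccr1 stood at 769 and 661 CPM in WT and 1036 and 1082 CPM in D3TA (log2 fold change 0.57 ± 0.19, edgeR adjusted p = 0.338), Cxcr2 at 1573 and 1412 CPM and 1832 and 1832 CPM (0.30 ± 0.20, 0.676), and Cxcr4 at 356 and 391 CPM and 313 and 406 CPM (-0.06 ± 0.20, 0.957). After TMM scaling, the groups overlapped for Cxcr4 and not for Ccr1 and Cxcr2. In the plain CPM given earlier for this class, the groups of Cxcr2 overlapped as well. The TMM factor of D3TA replicate 1 was 0.857. In the same sums the 10 immature neutrophil markers added up to 1198 and 866 CPM in WT and 4127 and 3434 CPM in D3TA, and their part in these values was not tested. The median log2 fold change of the 12 members was -0.25 beside 0.01 over all genes. In B-cell-like cells edgeR called 0 of 33 members (0% of all genes), 4 passed unadjusted (5.27%), and DESeq2 called 2 (1.05%), Ccl19 and Ccr1. In T-cell-like cells edgeR called 0 of 25 (0.0514%), 4 passed unadjusted (5.78%), and DESeq2 called 0 (0.903%). The 10 immature neutrophil markers summed to 9.85 and 10.7 CPM in WT and 772 and 609 CPM in D3TA T-cell-like sums, and their part was not tested. The medians were -0.02 in B-cell-like and 0.37 in T-cell-like cells, each beside 0.01 over all genes. In conventional dendritic cell-like cells edgeR called 0 of 16 (0.0424%), 4 passed unadjusted (7.65%), DESeq2 called 1 (0.445%), and the median log2 fold change was 0.04 beside 0.03. The gene called by DESeq2 was Xcr1, at 138 and 183 CPM in WT and 435 and 369 CPM in D3TA (log2 fold change 1.32 ± 0.30, edgeR adjusted p = 0.257, DESeq2 adjusted p = 0.0229). The 10 cDC1 markers summed to 3684 and 3453 CPM in WT and 4632 and 6453 CPM in D3TA in the same cells, and within cDC1-like cells Xcr1 stood at 383 and 485 CPM in WT and 621 and 568 CPM in D3TA. In the dendritic sums the 10 immature neutrophil markers added up to 30.3 and 20.8 CPM in WT and 648 and 387 CPM in D3TA. The part of these markers was not tested.

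T-cell-like cells of D3TA replicate 1 had a chemokine pattern of their own. Subsets were read from T-cell-like cells with UMIs of Cd4 alone (CD4 cells), of Cd8a or Cd8b1 alone (CD8 cells), or of Foxp3 without either Cd8 gene (Foxp3 cells). In CD4 cells Ccl5 stood at 364 and 436 CPM in WT replicates 1 and 2, 20530 CPM in D3TA replicate 1 and 362 CPM in D3TA replicate 2. Ccl4 stood at 4.14, 7.86, 586 and 4.69 CPM and Ccl3 at 0.414, 3.82, 158 and 0.939 CPM in the same order. For each of these 3 genes the second D3TA mouse lay within or beside the WT values. Ccr7, which keeps T cells in circulation through lymphoid tissue, was low in the same library at 7.67 CPM, against 115, 75.2 and 95.7 CPM in the other 3. In CD8 cells the library was likewise apart, with 17220 CPM of Ccl5 against 1046, 4011 and 2511 CPM, 9.68 CPM of Ccr7 against 99.0 to 138 CPM, and 2.95 CPM of Ccr9 against 39.5 to 79.4 CPM. In Foxp3 cells Ccr7 lay between 20.3 and 36.7 CPM in all 4 libraries, but Ccl1, Cxcl3 and Cxcl5 stood at 33.7, 28.7 and 13.1 CPM in D3TA replicate 1, where the other 3 libraries had at most 0.966 CPM. Of the 221 Foxp3 cells of that library, 3 carried Ccl1, 20 carried Cxcl3 and 6 carried Cxcl5.

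**Figure D5:**
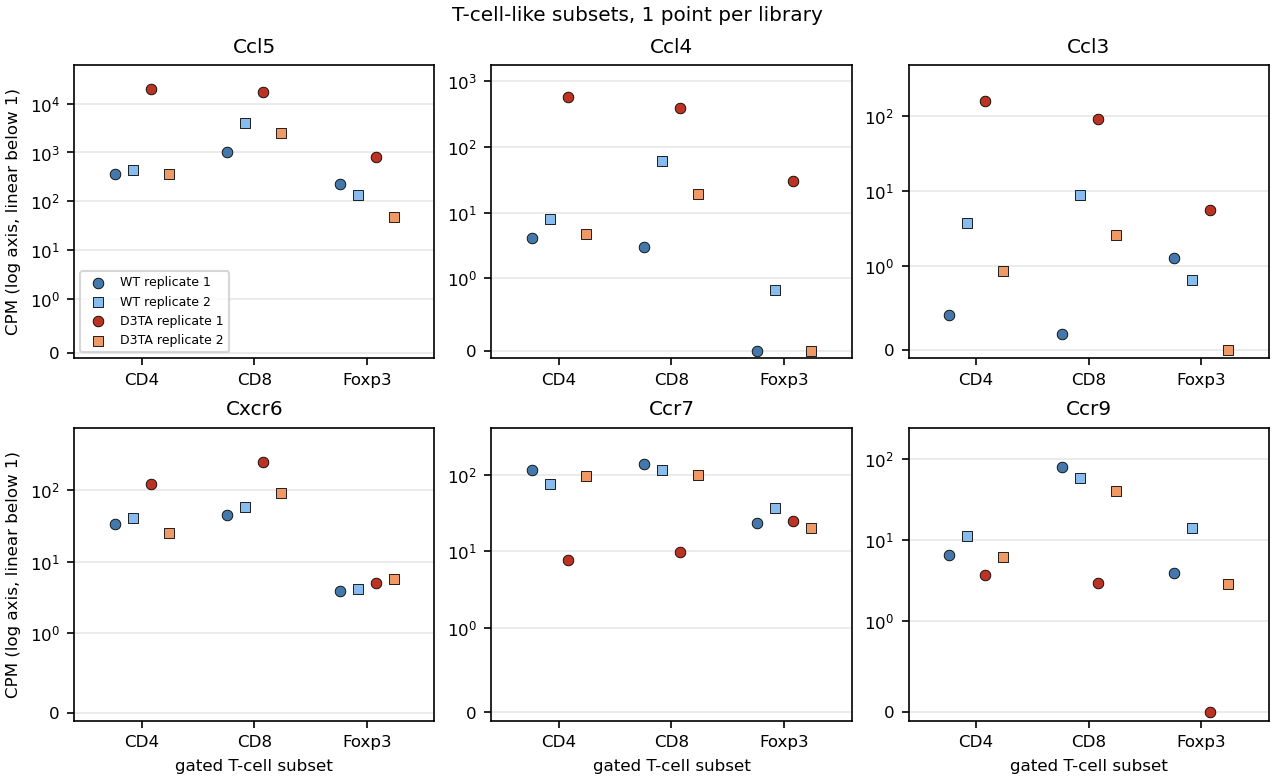
CPM (log axis, linear below 1) of Ccl5, Ccl4, Ccl3, Cxcr6, Ccr7 and Ccr9 in T-cell-like cells with Cd4, Cd8 or Foxp3 UMIs, 1 point per library. D3TA replicate 1 is the highest point for Ccl5, Ccl4 and Ccl3 in all 3 subsets and the lowest for Ccr7 in CD4 and CD8 cells, and D3TA replicate 2 lies near the WT points.

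The same split was seen per cell. After thinning to 1000 UMIs, 81.2% of the CD4 cells of D3TA replicate 1 had a Ccl5 UMI, against 6.25%, 9.27% and 9.38% in WT replicates 1 and 2 and D3TA replicate 2 (unthinned 95.9% against 16.6%, 23.2% and 19.3%). In B-cell-like cells 12.1%, 3.80%, 13.4% and 2.47% of thinned cells had a UMI of it, and mature neutrophil-like cells of D3TA replicate 1 had 33.3% against 3.31% to 6.31% in the other libraries. Only in WT replicate 1 was the share of B-cell-like cells above that of CD4 cells. In D3TA replicate 1, 78.6% of unthinned B-cell-like cells had a Ccl5 UMI, at a median of 13180 UMIs per cell. Whether low levels of Ccl5 outside T and NK cell-like cells are RNA of those cells or background was not tested.

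In the T-cell-like comparison Ccl5 and Cxcr6 did not pass. Ccl5 differed by 2.78 ± 1.10 on the log2 scale (edgeR adjusted p = 0.852), with 1003 and 1685 CPM in WT and 16895 and 1618 CPM in D3TA. Cxcr6, a receptor of tissue-resident T cells, stood at 51.7 and 61.4 CPM in WT and 152 and 86.3 CPM in D3TA (1.07 ± 0.31, 0.738). Without D3TA replicate 1 edgeR again called 0 members in T-cell-like cells, and without D3TA replicate 2 it called 0 as well. Whole spleen showed the same split, with Ccl5 at 330 and 370 CPM in WT and 3282 and 315 CPM in D3TA (edgeR adjusted p = 0.261).

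B-cell-like cells of D3TA replicate 1 also differed. Ccr6, a receptor of mature B cells, stood at 113 and 125 CPM in WT and at 17.0 and 172 CPM in D3TA replicates 1 and 2, and after thinning 2.19% of the B-cell-like cells of D3TA replicate 1 had a UMI of it against 9.16%, 11.4% and 15.2% in the other libraries (unthinned 8.76% against 19.0%, 43.8% and 54.0%). T-cell-like cells, as a class of low Ccr6, had it in 0.444% to 1.11% of thinned cells. Ccr7 in B-cell-like cells was 45.2 and 38.9 CPM in WT and 10.0 and 42.6 CPM in D3TA, whereas Cxcr5 kept to 120 to 145 CPM in all 4 libraries. Ccl19 was the reverse, at 8.36 CPM in the B-cell-like cells of D3TA replicate 1, where 275 of the 311 UMIs of that library lay in 96 B-cell-like cells, and 0.227 to 0.467 CPM in the others. Ccr1, called by DESeq2 with Ccl19, stood in the test at 8.76 and 6.22 CPM in WT and 54.7 and 14.7 CPM in D3TA (edgeR adjusted p = 0.854). In these B-cell-like sums the 10 immature neutrophil markers added up to 41.4 and 17.8 CPM in WT and 513 and 669 CPM in D3TA, and their part in the Ccr1 values was not tested.

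Several ligand sums rested on single cells. Of 162 sums of a member in a library that reached 20 UMIs, 16 had at least 25% of their UMIs in 1 cell. Ccl1, a Ccr8 ligand of activated T cells, had 60 of its 62 UMIs of WT replicate 2 in 1 T-cell-like cell. Ccl8 in D3TA replicate 1 had 1919 of 2215 UMIs in 43 cells of no class, of which 1 cell held 597. Ccl24, an eosinophil-attracting ligand of Ccr3, had 55 of its 100 UMIs of that library in 1 cell of no class. For these genes a library's level is the level of a few cells. Gene structure also limits single members: in GENCODE M21, 17 of the 51 overlap another gene, 16 of them on the opposite strand, among them Ccl6, Cx3cr1, Cxcl10, Cxcr5 and Cxcr6. On the same strand 3 members overlap another gene, namely Ackr1, Ccr9 and Cx3cr1, so Ccr9 and Cx3cr1 have overlaps on both strands. Whether counting used the strand is stated by no header or label. Ccl19, Ccl21a and Ccl27a have near-identical copies, whose entries all had 0 UMIs. Whether reads that match several copies were lost from the counts was not tested.

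Of 40 further genes of the pathway, listed as related ligands and receptors, G proteins, arrestins, kinases and regulators, 40 were tested in whole spleen and 3 were called, all higher in D3TA, against 6.03% of all genes. Arrb2, the arrestin that ends signalling and internalizes receptors, stood at 26.3 and 22.1 CPM in WT and 105 and 79.9 CPM in D3TA (log2 fold change 1.93 ± 0.21, edgeR adjusted p = 0.0131). Rgs2, a regulator that shortens G protein signals, stood at 40.0 and 38.5 CPM in WT and 95.8 and 85.9 CPM in D3TA (1.21 ± 0.15, edgeR adjusted p = 0.0183). Pf4, the platelet chemokine Cxcl4 under its older symbol, stood at 1.02 and 1.78 CPM in WT and 7.83 and 5.83 CPM in D3TA (2.29 ± 0.38, edgeR adjusted p = 0.0366). The groups of these 3 genes did not overlap, and each lost its call without WT replicate 1 or 2 (edgeR adjusted p from 0.0533 to 0.270), Pf4 also without D3TA replicate 1 (0.0652) and under the stricter cell filter (0.0791). At an unadjusted p under 0.05, 13 of the 40 passed (22.2% of all genes), and DESeq2 called 8 (13.3%). The log2 fold change was positive for 32 of the 40, with a median of 0.27, beside 49.7% of all genes and a median of -0.003.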

How the data were processed

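RNA of spleen cells from 4 mice was counted in droplet libraries, 1 per mouse. The authors deposited 1 table of whole-number UMI counts per library, which the file headers attribute to Cell Ranger 7.0.1 and the submitters' processing notes to mm10. No header or label states intron counting, strand use or the annotation release. All per-sample columns were used, so that the number left out is 0.

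Barcodes needed a minimum of 500 UMIs and 250 detected genes, with a mitochondrial share up to 10%, and doublets called by Scrublet (scanpy 1.11.5, expected share 6%) were removed. A cell received a class with at least 3 of its 10 markers detected and a lead of 2 over the next class (20 classes, 196 markers). Shares of cells were read after thinning each cell to 1000 UMIs.

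The UMI counts of each class in each library were added up and compared by edgeR 4.0.16 (glmQLFit and glmQLFTest, filterByExpr, TMM, R 4.3.3), genotype as the only term, Benjamini-Hochberg over all genes tested. DESeq2 1.42.0 was an alternative, as were median-ratio size factors, no filter on low counts, a stricter cell filter and gate, a gate on thinned cells, doublets kept, a replicate block and leaving out each library. The scripts were tested on simulated counts. Of simulated 2-fold changes, 1% (B-cell-like) to 25% (mature neutrophil-like) were called, and of 4-fold changes 30% to 80% in the same classes. False calls made up 3.03% (macrophage-like) to 20.5% (B-cell-like) of the simulated calls. A member not called is therefore not shown to be unchanged. Members called by edgeR and members of at least 50 CPM in their highest class are given in full, and the others by range, class and count. Of the pathway list, up to 4 called genes per direction are named. The members and lists were chosen with earlier results of these data known. An exact permutation test of 2 mice against 2 cannot go below 0.333 and was not used. Positions are from GENCODE M21 on GRCm38. Promoters are from RefSeq (GRCm38.p6). The values of 1 member are not reported here.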

Additional observations from a re-analysis of the deposited data

Results flagged for a closer look

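Ccl6 lay on opposite sides of WT in different classes, with both D3TA libraries above or below both WT libraries, although only the monocyte value passed the test. Its log2 fold change was 1.87 in red pulp macrophage-like cells (edgeR adjusted p = 0.559), -1.57 in classical monocyte-like cells (edgeR adjusted p = 0.000165) and -1.15 in conventional dendritic cell-like cells, where edgeR called no member. In the dendritic cells it stood at 21.6 and 32.6 CPM in WT and 15.8 and 9.99 CPM in D3TA. In the macrophage sums the 10 markers of mature neutrophils, the class highest in Ccl6, stood at 104 and 80.4 CPM in WT and 506 and 404 CPM in D3TA, and their part was not tested. Ccr3 had a log2 fold change of 1.34 in T-cell-like cells and -1.56 in B-cell-like cells, at levels of at most 2.85 CPM, and passed in neither. The difference between the classes was not tested for either gene.

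Cells that received no class were outside every comparison. In D3TA replicate 1 they held Ccl8 at 199 CPM, against 0 and 0.652 CPM in WT replicates 1 and 2 and 0 CPM in D3TA replicate 2, so that 1 mouse of 4 shows it.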

How the results depend on the processing

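With 2 mice a group, the counts of called members moved with the library left out, and the share of all genes called by the same fit, given in brackets, moved with them. Leaving out each in turn, whole spleen ranged from 0 (1.12%) to 25 (29.9%) called members, the pathway list from 0 (1.85%) to 18 (29.9%), mature neutrophil-like cells from 0 (0.106%) to 4 (6.73%), monocytes from 2 (6.18%) to 9 (21.3%), macrophages from 0 (0.286%) to 9 (2.79%), B-cell-like cells from 0 (0%) to 7 (14.4%) and conventional dendritic cells from 0 (0.652%) to 4 (12.4%), while T-cell-like cells stayed at 0 (up to 0.695%). The highest count of a range came without D3TA replicate 2, and in dendritic cells also without D3TA replicate 1 (3.99%). The lone library left in a group is taken to vary like the other group.

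Without a filter on low counts edgeR called 5 members and 6 pathway genes in whole spleen (5.12%), 2 members in mature neutrophils (1.38%), 7 in monocytes (5.57%), 8 in macrophages (0.643%), 1 in T cells (0.549%) and 3 in dendritic cells (1.59%). DESeq2 called 10 members and 8 pathway genes in whole spleen (13.3%), 2 in B cells (1.05%) and 1 in dendritic cells (0.445%). In macrophages the stricter cell filter (0.203%), the stricter gate (0.256%) and removing the most loaded cell of each library (0.305%) each left 0 calls. The causes were not tested. None of the genes called by edgeR changed direction under the alternatives run for it, and genes not called were not rerun singly.

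The labels share replicate numbers between the groups without saying that they pair mice, and the differences between replicates correlated at -0.271 to 0.0442 over genes. With the replicate block edgeR called 5 pathway genes and 4 members in whole spleen (5.55%), 1 in mature neutrophils (1.86%) and 5 in monocytes (13.2%). The crossed replicate block, chosen after seeing the data, called 4 in macrophages (1.01%) and 7 in T cells (3.24%). WT libraries held 25 and 51 classical monocyte-like cells, and this depth limits the low members of that class.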
